A study of Capra hircus with 3 samples.

Results

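A group of E60 fetal goat skin cells was defined by co-detection of SMOC2, SEMA3C, SERPINF1, MFAP5, LMCD1 and EFHD1. A cell was a member when it had at least 1 unique molecular identifier (UMI, a tag that marks 1 captured RNA molecule) for at least 4 of these 6 genes and for fewer than 3 of the 4 tendon or cartilage genes THBS4, COL2A1, CYTL1 and TNMD. The rule gave 566 of the 6849 E60 cells, a share of 8.26% (exact binomial 95% interval 7.62 to 8.94), out of 20676 cells in the whole series (the design text names 19705 cells, with no filter given). The cells came from back skin of Northern Shaanxi White Cashmere goat (Capra hircus) fetuses at gestation day 60, the stage of hair follicle induction per the study's design text, with no treatment or genetic change given in the labels. Skin was digested with collagenase IV and pipetting, and cells of at least 2 fetuses were pooled before barcoding into 1 library of droplet-based 3′ single-cell RNA sequencing (10x Genomics, version 3 chemistry). E90 skin, dissociated in the same way, and E120 follicles, dissected and then treated with TrypLE, were 1 library each and are used here only to ask whether the rule finds cells at other stages. With 1 library per stage there was no replicate, no test was made, and all intervals are exact 95% intervals that cover counting error only.

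Dermal fibroblasts make the collagen and proteoglycan matrix of the skin, and in fetal skin they separate into upper cells beneath the epidermis, lower cells that lead to reticular dermis and fat, and fascia beneath the skin. SMOC2 is a secreted calcium-binding matricellular protein of the SPARC family. SEMA3C is a secreted semaphorin, a guidance ligand for neuropilin and plexin receptors. SERPINF1 encodes pigment epithelium-derived factor, a secreted serpin that restrains vessel growth, and MFAP5 is a glycoprotein of the fibrillin microfibrils around elastic fibres. LMCD1 is a LIM-domain transcriptional cofactor, and EFHD1 is a calcium-binding EF-hand protein of mitochondria. Among the excluded genes, TNMD encodes tenomodulin, a membrane protein of tendon, THBS4 a thrombospondin of tendon matrix, CYTL1 a secreted cartilage protein and COL2A1 the main cartilage collagen.

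The members held 5298931 UMIs, with a median of 8105 per cell against 8617 in the other 6283 E60 cells, so the members were not the deeper cells. When each cell was thinned to 6000 UMIs the median number of genes was 1504 in members and 1478 in the other cells. The median mitochondrial share was 4.94% in members and 4.48% in the others. Of the 411 cells with the most UMIs in the library, where doublets collect, 44 were members, 7.77% of the members against 6% of E60. Barcodes shared with another library numbered 9 for E90 and 10 for E120, and 2 and 1 of these belonged to members.

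Checked against the fibroblast markers, the members were high in the matrix genes but not in PDGFRA or TWIST2. Levels are given as CPM, that is, UMIs of a gene summed over a group of cells, per 1000000 UMIs of all genes in that group. COL1A1, a chain of type I collagen, was at 5675 CPM (5612 to 5740) in members and 1468 CPM (1458 to 1477) in the other E60 cells, and COL1A2, the other chain, was at 4620 CPM and 1280 CPM. The proteoglycans DCN and LUM were at 9015 CPM and 8373 CPM in members against 3907 CPM and 2891 CPM. All 566 members had UMIs of each of these 4 genes. DCN was also found in 86.5% of the 104 cells with at least 3 myeloid markers, so a share of cells with DCN says little about expression, whereas the levels differed: myeloid cells had 893 CPM. The fibroblast receptor PDGFRA, at 36.2 CPM (31.3 to 41.7) in members and 32.5 CPM (31.1 to 34.0) in the others, did not differ beyond counting error. TWIST2, a dermal transcription factor, had 6 UMIs in all members together, at 1.13 CPM (0.416 to 2.46). It was at only 2.18 CPM (1.82 to 2.58) in the other E60 cells, so the low count says little about the members.

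Other cell types were looked for with lists of defining markers. No member had 3 or more markers of the myeloid, Schwann or glial, epithelial, melanocyte or mast lists. In all of E60 only 5 cells had 3 epithelial markers, 4 had 3 melanocyte markers and 0 had 3 mast markers, so those absences say little. Epithelial markers summed to 0.189 CPM in members and 5.46 CPM in the other E60 cells. Of the 10 markers 9 were at 0 in members, and KRT14, TP63 and PERP were at 0 in all E60 cells. Of the endothelial markers, at least 3 were found in 10 members (1.77%, against 2.20% of the other E60 cells). For the skeletal muscle markers this was 13 members (2.30%, against 1.29%) and for the erythroid markers 1 (0.177%, against 0.334%). Endothelial markers summed to 91.3 CPM in members, 14.6 CPM in the mesenchymal comparison cells described next and 4691 CPM in the endothelial cells themselves. The mural list stood apart: 175 members (30.9%) had at least 3 of its markers, against 5.30% of the other E60 cells, and its genes are described below. A second set of comparison cells, called other mesenchymal E60 cells, was made of the 5588 non-members with fewer than 3 markers of every other class. Because members were not filtered in this way, each comparison with that set was repeated with the 377 members that would have passed the filter.

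The 6 rule markers were the basis of the choice, so their levels in members are a description and carry no weight as a difference. MFAP5 was at 1949 CPM (1911 to 1986) in members and 157 CPM (153 to 159.8) in the other E60 cells. SMOC2 was at 1180 CPM and 110.0 CPM, and SERPINF1 at 762 CPM and 71.8 CPM. SEMA3C was at 224 CPM and 9.64 CPM, LMCD1 at 202 CPM and 17.9 CPM, and EFHD1 at 106 CPM and 4.75 CPM. SMOC2, SERPINF1 and MFAP5 were near-constant features of the members, whereas SEMA3C and EFHD1 were found in only part of them.

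Detection at equal depth made that split plain. At 6000 UMIs per cell, SMOC2 was found in 98.4% of members, SERPINF1 in 95.1% and MFAP5 in 92.9%. LMCD1 was found in 71.9%, SEMA3C in 52.8% and EFHD1 in 39.8%. The same shares in the 104 cells with myeloid markers, which should lack these genes and had a median of 8753 UMIs before thinning, were 11.5% for SMOC2, 5.77% for SERPINF1, 10.6% for MFAP5, 3.85% for LMCD1, 1.92% for SEMA3C and 0% for EFHD1. Since the rule chose members by these genes, their shares had to lie above that level. LMCD1 was also a gene of another class: it was found in 50.7% of the cells with at least 3 endothelial markers at equal depth, at 191 CPM. Per cell, the 10th percentile, median and 90th percentile of members were 334, 1173 and 2398 CPM for SMOC2, 154, 1394 and 4925 CPM for MFAP5, and 0, 121 and 638 CPM for SEMA3C.

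**Figure D1:**
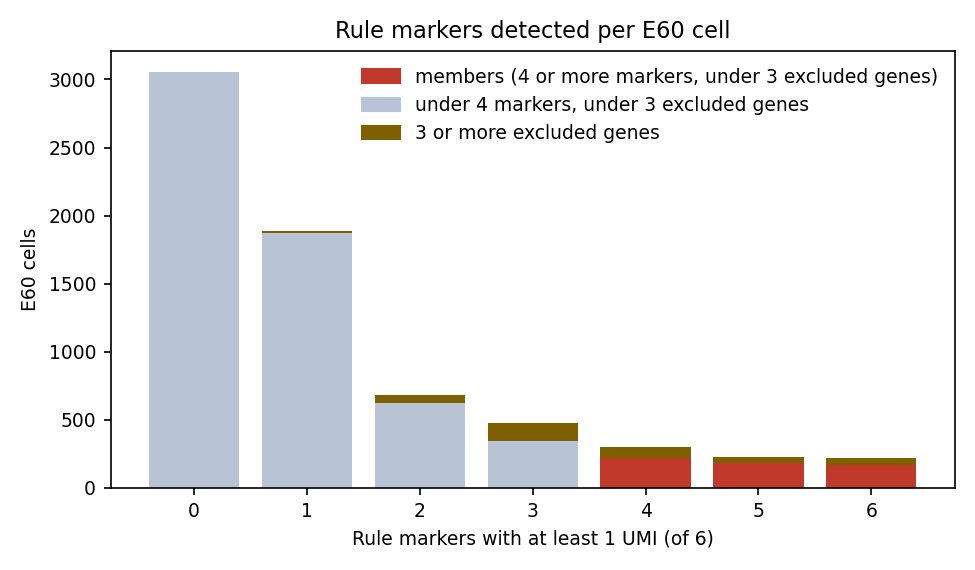
Number of the 6 rule markers with at least 1 UMI (horizontal axis) in each of the 6849 E60 cells (vertical axis, number of cells). Members are the 216, 180 and 170 cells with 4, 5 and 6 markers and fewer than 3 excluded genes. The 343 cells with 3 markers lie just outside the rule, and 3058 cells had none of the markers.

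The number of markers per cell had a long upper tail and no gap at the threshold, as the plot of marker numbers shows. Of the cells with fewer than 3 excluded genes, 622 had 2 markers and 343 had 3, followed by 216 with 4, 180 with 5 and 170 with 6. Just inside the threshold, cells with 4 markers had 941 CPM of SMOC2, 584 CPM of SERPINF1 and 33.9 CPM of SEMA3C. Just outside it, cells with 3 markers had 499 CPM, 351 CPM and 13 CPM. The share of members followed the threshold: at least 3 markers would give 13.3% of E60 and at least 5 would give 5.11%.

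To read the markers in counts that had not chosen the cells, the UMIs of each cell were put at random into 1 of 2 equal parts. Cells with at least 3 of the 6 markers, and fewer than 3 excluded genes, in the first part numbered 800, and 544 of them were members by the full rule. In the other part these 800 cells had 1849 CPM of MFAP5 against 104 CPM in the remaining cells, 1044 against 88.1 CPM of SMOC2 and 679.6 against 55.0 CPM of SERPINF1. SEMA3C was at 174 against 8.79 CPM, LMCD1 at 166 against 17.5 CPM and EFHD1 at 80.5 against 4.34 CPM. Each marker was also higher in UMIs that the choice had not read. Both parts came from the same cells, so the choice favoured this outcome, and it carries no weight as a difference. Co-detection within the unread part was not measured.

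Tendon and cartilage genes were frequent in the members, within the limit the rule sets. Only 31 members had none of the 4 excluded genes, 261 had 1 and 274 had 2. TNMD was found in 416 members (73.5%, 69.7 to 77.1), at 672 CPM against 164 CPM in the other E60 cells. THBS4 was found in 34.5% and CYTL1 in 34.3% of members, whereas COL2A1 was found in 4 members, at 1.32 CPM against 26.6 CPM. The commonest pattern was TNMD alone, in 221 members, followed by CYTL1 with TNMD in 110, THBS4 with TNMD in 84 and THBS4 with CYTL1 in 77. A further 180 cells had 4 or more rule markers but were left out for 3 or more excluded genes. These cells also had high levels of the rule markers, with 1029 CPM of SMOC2, 777 CPM of SERPINF1 and 166 CPM of SEMA3C, and had 155 CPM of COL2A1. Both are favoured by how the cells were picked. LUM, outside the rule, was at 4538 CPM in them and 8373 CPM in members. Within members LUM was at 10528 CPM with 1 excluded gene and 6506 CPM with 2.

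Outside the rule, genes were ordered by the log2 ratio of members over all other E60 cells, computed on CPM + 1, and those named reached 50 CPM on the higher side. In all, 3909 genes outside the rule reached 20 CPM in either group, of which 519 (13.3%) were at least 1.5-fold higher and 361 (9.24%) at least 1.5-fold lower in members. Since the rule chose the cells and these genes were read in the same cells, the ratios describe the members and were not tested.

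DLK1, a membrane protein that restrains fat cell differentiation, had the highest level among the leading genes. It was at 4294 CPM (4238 to 4350) in members and 499 CPM (493 to 504) in the other E60 cells, a log2 ratio of 3.10. Its spread over members was wide, with a 10th percentile of 0, a median of 3950 and a 90th percentile of 10203 CPM, and 491 of 566 members had a UMI of it. At equal depth DLK1 was found in 84.1% of members, 29.0% of the other E60 cells and 33.7% of the cells with myeloid markers. For the 800 cells chosen by at least 3 markers in the first part of the UMIs, the log2 ratio in the other part was 3.81. Only 544 of these cells were members, and the comparison cells differed too. The 3.81 is therefore no check on the 3.10, and why it was higher was not tested. PTN, the heparin-binding growth factor pleiotrophin, was at 1024 CPM in members against 135 CPM in the other E60 cells (2.91). PCOLCE, an enhancer of procollagen processing, was at 1617 CPM against 238 CPM (2.76). PCOLCE was the most even of these genes, found at equal depth in 98.9% of members and 41.9% of the other cells.

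MAP1LC3C, a member of the LC3 family of autophagy proteins, had the largest ratio. It was at 93.6 CPM (85.5 to 102) in members and 2.44 CPM (2.06 to 2.87) in the others, a log2 ratio of 4.78, or 3.06 with a pseudocount of 10 CPM. It was found in only 162 members, so its level rested on 28.6% of them. The transcription factor ZFHX4 was at 587 CPM against 83.5 CPM (2.80) and was found in 549 members. Other genes with high ratios were ADAMTSL4, which binds fibrillin microfibrils, at 94.5 against 9.17 CPM (3.23), its relative ADAMTSL3 at 72.7 against 10.0 CPM (2.74), the thrombospondin THBS2 at 241 against 34.8 CPM (2.76), and the growth factor TGFB2 at 151 against 22.3 CPM (2.71).

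A second class 3 semaphorin, SEMA3E, was at 62.3 CPM (55.7 to 69.4) in members and 8.37 CPM in the others (2.76). The proprotein convertase PCSK5 was at 289 against 41.8 CPM (2.76), GALNT17, of the glycosyltransferases that start O-linked glycans, at 112 against 11.4 CPM (3.19), and PLPPR5 at 133 against 15.7 CPM (3.00). C2orf40 was at 112 against 12.1 CPM (3.10) and FIBIN at 60.4 against 8.52 CPM (2.69). Pseudocounts weigh on the smaller of these values: with 10 CPM in place of 1 the log2 ratios of ADAMTSL4, GALNT17, C2orf40, ADAMTSL3, SEMA3E and FIBIN were 2.45, 2.51, 2.46, 2.05, 1.98 and 1.93.

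**Figure D2:**
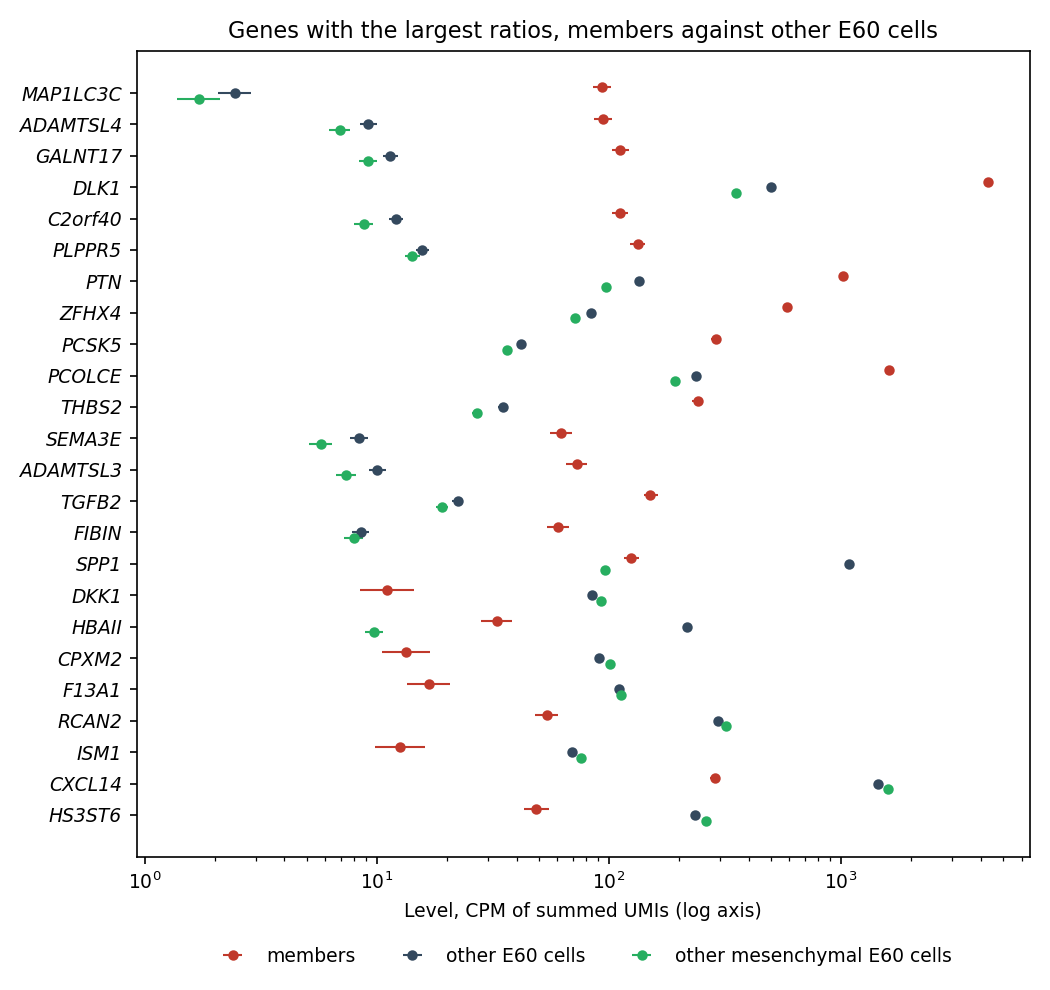
Levels in CPM of summed UMIs (horizontal log axis) of the 15 genes most raised and 9 of the 10 genes most lowered in members by log2 ratio over other E60 cells. Points are the 566 members, the 6283 other E60 cells and the 5588 other mesenchymal E60 cells, and bars are exact 95% Poisson intervals. For SPP1 and HBAII the mesenchymal cells lie below the members, unlike the other genes in the lower part.

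The genes lowest in members included several that were low against all other E60 cells and against the mesenchymal ones alike. DKK1, a secreted WNT inhibitor, was at 11.1 CPM (8.48 to 14.4) in members and 84.8 CPM (82.5 to 87.2) in the other E60 cells, a log2 ratio of -2.82, or -2.17 with a pseudocount of 10 CPM. The chemokine CXCL14 was at 287 CPM against 1441 CPM (-2.32), and the calcineurin regulator RCAN2 at 54.0 against 295 CPM (-2.43). CXCL14 was found in 36.6% of members and 82.6% of the other cells at equal depth. It was also found in 45.2% of the cells with myeloid markers, so its share in members lay below that background. RCAN2 had a ratio of -3.28 without the 6% of cells with the most UMIs.

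F13A1, the A chain of coagulation factor XIII, was at 16.8 against 111 CPM (-2.65), the carboxypeptidase-like CPXM2 at 13.4 against 90.5 CPM (-2.67), the secreted protein ISM1 at 12.6 against 69.5 CPM (-2.37, and -2.97 for members with at least 5 markers) and the sulfotransferase HS3ST6 at 48.7 against 235 CPM (-2.25). SPP1 and HBAII were low against all other E60 cells, with log2 ratios of -3.11 and -2.69, but were not low against the mesenchymal ones, at 0.37 and 1.66. SPP1, the secreted phosphoprotein osteopontin, was found in 84.6% of the cells with myeloid markers, and HBAII is an alpha globin gene of red cells. HBAII had a ratio of -1.31 against all other cells without the 6% of cells with the most UMIs.

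Against the other mesenchymal E60 cells, 3872 genes were tested, of which 568 (14.7%) were at least 1.5-fold higher and 329 (8.50%) at least 1.5-fold lower in members. The leading names were largely those above, with log2 ratios of 5.12 for MAP1LC3C, 3.60 for DLK1 and 3.38 for PTN. ABCC9, KCNJ8, ACTC1 and DEPP1 entered the first 10 only in this comparison. DEPP1 and ACTC1 rested on few members with markers of another class: with such cells left out of both sides, DEPP1 went from 3.50 to -0.03 and the muscle actin gene ACTC1 from 3.55 to 0.58. Among the lowest genes were again DKK1 (-2.94), CPXM2, F13A1, RCAN2, ISM1, CXCL14 and HS3ST6, joined by the signalling protein CHN1, at -2.36.

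Gene lists were then counted against the other mesenchymal E60 cells, to be read beside the 14.7% higher and 8.50% lower of all genes tested and their median log2 ratio of -0.03. Collagen genes were mostly higher: of 14 tested, 9 were at least 1.5-fold higher and 1 lower, with a median of 1.63. COL12A1 and COL14A1, which decorate fibrils, were at 161 CPM against 26.8 CPM (2.54) and 152 against 30.0 CPM (2.30), and COL11A1, a minor fibrillar collagen, was at 563 against 136 CPM (2.04). COL6A6 was at 37.0 against 1.79 CPM (3.77), but at 1.99 with a pseudocount of 10 CPM. COL6A3, of the same microfibrillar type VI family, went the other way, at 8.49 against 33.4 CPM (-1.86).

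All 7 small leucine-rich proteoglycans tested, which bind collagen fibrils, were higher, with a median of 1.74. ASPN was at 1315 CPM (1284 to 1346) against 154 CPM (3.08), OGN at 2809 against 841 CPM (1.74), and BGN at 366 against 97.1 CPM (1.91). FMOD, which is also on the tendon list, was at 227 against 92.6 CPM (1.28). Elastic fibre and microfibril genes, the company of MFAP5, were higher in 7 of 12 and lower in 1, with a median of 1.09. LOX, which crosslinks collagen and elastin, was at 69.1 against 17.8 CPM (1.90), the latent TGF-beta binding protein LTBP3 at 28.1 against 5.46 CPM (2.17, or 1.30 with a pseudocount of 10 CPM) and EFEMP2, a fibulin that elastic fibres need, at 299 against 116 CPM (1.35). FBLN1 at 1403 against 1235 CPM and FBN2 at 79.1 against 55.7 CPM stayed within 1.5-fold, and LTBP1 was lower, at 32.6 against 51.1 CPM (-0.63). Of 10 matrix proteases and inhibitors, 7 were higher and none lower, among them MMP23B at 328 against 53.2 CPM (2.60) and TIMP2 at 814 against 407 CPM (1.00).

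**Figure D3:**
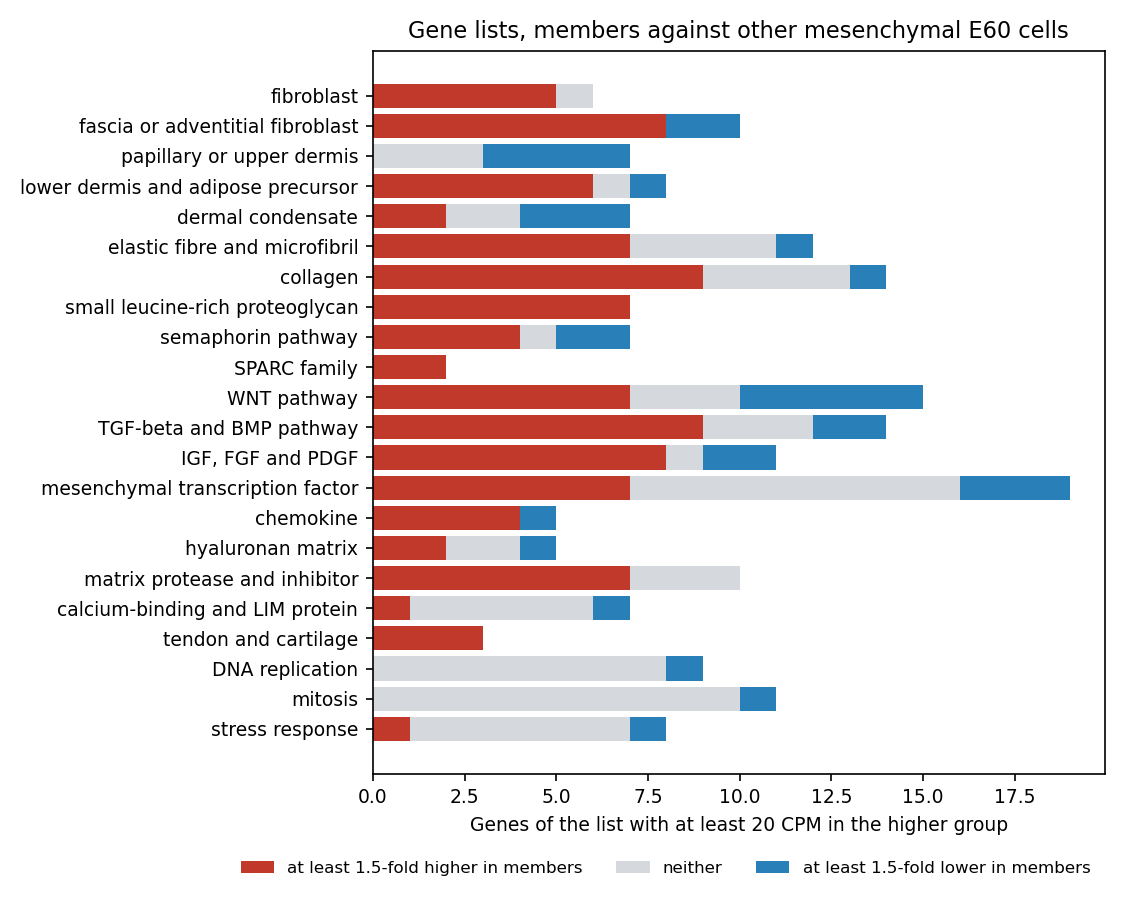
Number of genes of each list with at least 20 CPM in the higher group (horizontal axis), split into those at least 1.5-fold higher in members, neither, and at least 1.5-fold lower, members against other mesenchymal E60 cells. All 7 proteoglycans and 9 of 14 collagens were higher, while 4 of 7 genes of the upper dermis list were lower and none higher.

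Lists of dermal position differed in direction. Of 7 genes of papillary or upper dermis tested, 4 were lower and none higher, with a median of -1.99: besides DKK1 and CXCL14 these were APCDD1, a WNT inhibitor and target, at 167 against 719.6 CPM (-2.10), and LEF1, a transcription factor of WNT signalling, at 16.4 against 68.4 CPM (-1.99). Of 8 genes of lower dermis and adipose precursors, 6 were higher and 1 lower, with a median of 2.05. Of the higher ones only DLK1 reached 20 CPM in the other mesenchymal cells, at 352 CPM. MGP, MEST, ZNF423, EBF2 and CD36 passed the filter only through the members, so the filter favoured this count. DKK1, LEF1 and PPARG passed it only through the comparison cells. Besides DLK1, EBF2 was at 39.3 against 3.43 CPM (3.18) and ZNF423 at 38.5 against 8.46 CPM (2.06), both transcription factors of the adipose lineage. The fat cell regulator PPARG was the lower one, at 9.25 against 33.2 CPM (-1.74). CD36, at 2.80, was at 0.13 without cells of another class. The small values of EBF2 and ZNF423 lean on the pseudocount: with 10 CPM their ratios were 1.87 and 1.39. Against mesenchymal cells chosen without the mural list, EBF2 was at 2.52.

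Fascia or adventitial fibroblast genes were higher in 8 of 10 tested and lower in 2. CLEC3B, the secreted protein tetranectin, was at 2558 CPM (2515 to 2602) against 248 CPM (3.36), IGFBP6 at 167 against 23.2 CPM (2.79), the receptor kinase AXL at 63.6 against 24.4 CPM (1.35) and DPP4, a surface peptidase of fascial progenitors, at 28.1 against 14.8 CPM (0.88). CD248 was lower, at 28.1 against 49.3 CPM (-0.79). PI16, a defining marker of adventitial fibroblasts in adult tissue, was listed at 0 UMIs in members and in all other E60 cells. Of 7 dermal condensate genes, 2 were higher and 3 lower, and 1 of the higher ones, SOX18, went from 1.72 to -0.12 without cells of another class. BMP4 was higher, at 67.2 against 18 CPM (1.84), and the hedgehog receptor and target PTCH1 was lower, at 13.6 against 31.2 CPM (-1.14).

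Signalling genes differed in both directions. Of 15 WNT pathway genes tested 7 were higher and 5 lower, with a median of 0.55. The higher ones included secreted inhibitors other than DKK1: SFRP1 at 167 CPM (156 to 178) against 21.7 CPM (2.88), DKK2 at 89.1 against 14.0 CPM (2.59) and SFRP2 at 111 against 32.7 CPM (1.73). The ligand WNT5A was at 132 against 52.0 CPM (1.33), and AXIN2, a common target, differed by less than 1.5-fold, at 37.7 against 47.2 CPM. FRZB, at 29.4 against 4.86 CPM (2.38), was at 0.54 for members with at least 5 markers, which ends its call. SFRP1 went from 2.88 to 2.24 for those members.

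Of 14 genes of the TGF-beta and BMP pathway, 9 were higher and 2 lower, with a median of 1.51. After TGFB2 (2.92) the widest were BMPER, a secreted BMP modulator, at 24.2 against 2.58 CPM (2.81, or 1.44 with a pseudocount of 10 CPM), ID4 at 72.7 against 14.6 CPM (2.24) and the BMP pseudoreceptor BAMBI at 59.6 against 12.1 CPM (2.21). Of 11 IGF, FGF and PDGF genes, 8 were higher and 2 lower. IGF1 was at 279 CPM (265 to 293) against 34.8 CPM (2.96) and IGF2 at 103 against 19.1 CPM (2.38). Their binding proteins diverged, with IGFBP6 higher and IGFBP5 lower, at 113 against 453 CPM (-2.0).

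Among semaphorins and their receptors, SEMA3C aside, 4 of 7 genes were higher and 2 lower. SEMA3E was at 3.23, SEMA3A at 26.4 against 4.61 CPM (2.29) and the receptor NRP2 at 77.9 against 22.9 CPM (1.73). SEMA3D was lower, at 37.4 against 79.6 CPM (-1.07), as was SEMA4D, at 8.49 against 37.2 CPM (-2.01), while NRP1 differed by less than 1.5-fold. With a pseudocount of 10 CPM the ratios of SEMA3E, SEMA3A and SEMA4D were 2.20, 1.32 and -1.35. Within the SPARC family of SMOC2, both genes tested were higher, SPARC at 7958 against 4023 CPM (0.98) and FSTL1 at 229 against 94.3 CPM (1.27). Of 19 mesenchymal transcription factors 7 were higher and 3 lower, and the widest besides ZFHX4 (3.03) and EBF2 were KLF2 at 783 against 98.1 CPM (2.98) and MEOX2 at 129 against 24.5 CPM (2.35). PRRX1, a general mesenchymal factor, was at 112 against 93.2 CPM.

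Of 5 chemokine genes, 4 were higher and 1, CXCL14, lower. Among the higher ones CCL11, ACKR4 and CCL21 passed the 20 CPM filter only through the members, so the filter favoured their direction. The eosinophil attractant CCL11 was at 82.5 against 14.0 CPM (2.47) and was 1.37 for members with at least 5 markers. ACKR4, a scavenging receptor for chemokines, was at 36.6 CPM (31.6 to 42.1) against 0.81 CPM (4.38), or 2.11 with a pseudocount of 10 CPM. The lymphatic endothelial chemokine CCL21, at 105 against 15.7 CPM (2.67), was at -1.20 without cells of another class. Of the 5 hyaluronan matrix genes 2 were higher and 1 lower: ITIH5 was at 73.8 against 9.87 CPM (2.78, or 2.08 with a pseudocount of 10 CPM), and TNFAIP6, at 368 against 557 CPM, was near the 1.5-fold line at -0.60 and crossed it with 10 CPM as pseudocount (-0.58). Of 16 measured tendon and cartilage genes outside the rule only 3 reached 20 CPM, COL11A1, FMOD and the tendon factor MKX. All 3 were higher, MKX at 103 against 59.4 CPM (0.79). Genes of that list below the filter went both ways, among them KERA (-2.11), CNMD (-1.29), SOX9 (-1.08) and HAPLN1 (1.56). Against all other E60 cells 4 were tested, and CNMD was lower, at 1.70 against 20.1 CPM (-2.97). SCX, the defining tendon transcription factor, was at 0 UMIs in members. It had only 4 UMIs in all other E60 cells together, so the 0 says little about the members. Of 7 calcium-binding and LIM proteins 1 was higher and 1 lower, S100A11 at 391 against 780.1 CPM (-1.0).

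Cycle genes were slightly lower in members. None of 11 mitosis genes and none of 9 DNA replication genes was 1.5-fold higher, and 1 of each was lower, MCM5 at -0.73 and AURKB at -0.65, the latter within 1.5-fold with a pseudocount of 10 CPM (-0.53). The 13 measured mitosis genes summed to 1007 CPM (980.0 to 1034) in members and 1242 CPM (1233 to 1252) in the other mesenchymal cells, and 17 replication genes to 679 CPM and 837 CPM. At 6000 UMIs per cell, 11% of members and 17.4% of the other mesenchymal cells had at least 5 UMIs of mitosis genes. Of 8 immediate early and stress genes 1, FOSB, was higher, at 346 against 133 CPM (1.38), and 1, BTG2, was lower, while FOS itself was at 6214 against 4377 CPM (0.51). These genes respond to dissociation, and their part in the other differences was not tested.

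With cells of another class left out of both sides, which kept 377 members, the counts under the same filter changed little. Genes at least 1.5-fold higher were then 545 of 3840 (14.2%) and lower ones 384 (10.0%). Proteoglycans remained at 7 of 7 higher, collagens were at 9 of 14 higher and 2 lower, upper dermis genes at 4 of 7 lower, fascia genes at 8 of 10 higher, and genes of the lower dermis list at 5 of 7 higher. Dermal condensate genes were at 1 of 6 higher and 3 lower, and their median went from 0.10 to -0.56.

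The mural markers came from a part of that list. ABCC9 and KCNJ8, subunits of the ATP-sensitive potassium channel of mural cells, were at 191 CPM and 56.4 CPM in members against 29.4 CPM and 10.8 CPM in the other E60 cells. NOTCH3 was at 72.7 CPM against 33.3 CPM and the intermediate filament gene DES at 82.1 against 50.3 CPM. At equal depth ABCC9 was found in 58.7% of members, 7.42% of the other E60 cells and 3.85% of the cells with myeloid markers. The other 6 measured markers of the list were low. MYH11, of smooth muscle, was at 1.32 CPM (7 UMIs) against 55.3 CPM in the other cells with at least 3 mural markers, and CNN1 at 8.87 against 33.0 CPM, but CNN1 was above the 3.76 CPM of the other mesenchymal cells. RGS5, HIGD1B and GJA4 had 1 UMI each in members and CSPG4 had 0, although RGS5, GJA4 and CSPG4 were also at only 4.68, 0.585 and 1.75 CPM in the other cells with mural markers. ACTA2, smooth muscle actin, which is not on the list, was at 350.3 CPM in members, 142 CPM in the other mesenchymal cells and 1172 CPM in the other cells with mural markers.

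The ABCC9 and KCNJ8 signal was not confined to the 175 members with 3 or more mural markers. The other 391 members had 158 CPM of ABCC9 and 31.6 CPM of KCNJ8, against 8.08 CPM and 2.31 CPM in the other mesenchymal E60 cells. Both parts of the members passed the same rule, so their levels of the rule markers carry no weight as a likeness. SMOC2 was at 1202 and 1169 CPM, SEMA3C at 252 (229 to 277) and 211 CPM (196 to 226), and LMCD1 at 179 and 213 CPM. CLEC3B, outside the rule, was at 2615 and 2530 CPM. The comparison cells had been cleared of cells with 3 mural markers, which raises these ratios: against mesenchymal cells chosen without the mural list, the log2 ratio was 2.65 for ABCC9 and 2.31 for KCNJ8, in place of 4.40 and 4.12. With a pseudocount of 10 CPM the latter were 3.47 and 2.43. Both genes were also high outside the members. The 388 cells with at least 3 of the 4 tendon or cartilage genes had 123 CPM of ABCC9 and 49.8 CPM of KCNJ8.

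Several genes with high or low ratios were also set against the number of rule markers per cell. They had been chosen for differing between members and other cells, so a difference between cells with many and few markers was fixed by that choice, and the steps are a description. Among cells with 0, 1, 2, 3, 4, 5 and 6 markers and fewer than 3 excluded genes, DLK1 was at 54.7, 95.3, 235, 2930, 3829, 3893 and 5301 CPM. The largest step of DLK1 lay between 2 and 3 markers, outside the rule. PTN was at 61.5 CPM in cells with no marker, 461 with 3, 832 with 4 and 1332 with 6, and COL1A1 was at 732, 3127, 4632 and 6715 CPM. MAP1LC3C stepped later, from 3.62 CPM with 3 markers to 23.8 with 4 and 184 with 6. CXCL14 went down at each step, from 1953 CPM with no marker to 614 with 3 and 147 with 6. Not every gene was ordered: SEMA3E was at 70.9, 60.7 and 53.2 CPM with 4, 5 and 6 markers.

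**Figure D4:**
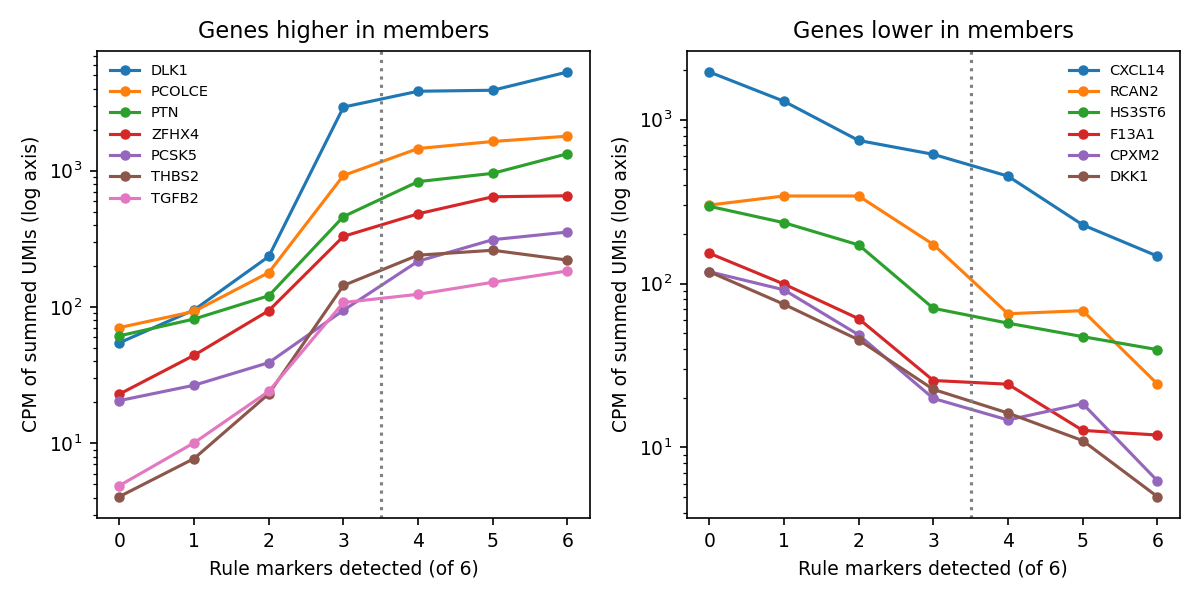
Levels in CPM of summed UMIs (vertical log axes) of genes outside the rule in E60 cells with 0 to 6 rule markers (horizontal axis) and fewer than 3 excluded genes. The dotted line is the threshold of the rule. Most of the change lies before the line for DLK1 (235 CPM with 2 markers, 2930 with 3), and CXCL14 goes down at each step.

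Whether the members also lay together on other genes was asked with a grouping of all E60 cells from which the 10 rule genes had been left out. On average 62.2% of the 20 nearest neighbours of a member were members, against 3.25% for the other cells and a share of 8.26% in the library, and 401 members (70.8%) had a majority of members around them. The neighbourhood of 12 members held no other member. Conversely, 144 non-members had a majority of members as neighbours. Clustering gave 21 clusters, and 396 members (70.0%) were in cluster 2, where they made up 66.0% of 600 cells. A further 77 members were in cluster 13 and 41 in cluster 18, and no other cluster held more than 12. Cluster 2 also held 116 cells with 3 or more excluded genes, and was led by MAP1LC3C, SEMA3C, EFHD1 and SERPINF1. Cluster 13 was led by CCL11, MGP and ANGPTL6 and cluster 18 by NMU, FBLN7 and C2orf40, with the mitotic genes ASPM and KIF23 among its leading 8.

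The rule genes had no part in these clusters, so their levels in the members of each can be compared, within the limit that every member passed the rule. That limit shapes the excluded genes: a member with both THBS4 and CYTL1 could not have TNMD. Cluster 13 held a further 69 cells with 3 or more excluded genes, none of which could be members. How much of the contrast in TNMD, THBS4 and CYTL1 came from the rule was not tested. TNMD was at 898 CPM (867 to 930.4) in the 396 members of cluster 2 and 55.8 CPM (38.7 to 78.0) in the 77 of cluster 13, and was found in 89.1% and 7.79% of them. THBS4 went the other way, at 64.9 CPM (56.6 to 73.9) in cluster 2 and 933 CPM (858 to 1013) in cluster 13, as did CYTL1, at 185 and 911 CPM. Of the rule markers, SEMA3C and EFHD1 were lower in cluster 13, at 55.8 against 279 CPM and 36.1 against 129 CPM. SMOC2 was at 892 against 1390 CPM, whereas MFAP5 was higher in cluster 13, at 2754 against 2113 CPM. All of these intervals were apart, for counting error in 1 library. Members of cluster 18 had TNMD at 562 CPM, SEMA3C at 265 CPM and THBS4 at 316 CPM. Their SEMA3C and EFHD1 levels overlapped those of cluster 2 within the intervals, and their LMCD1, at 136 CPM, that of cluster 13, at 138 CPM.

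**Figure D5:**
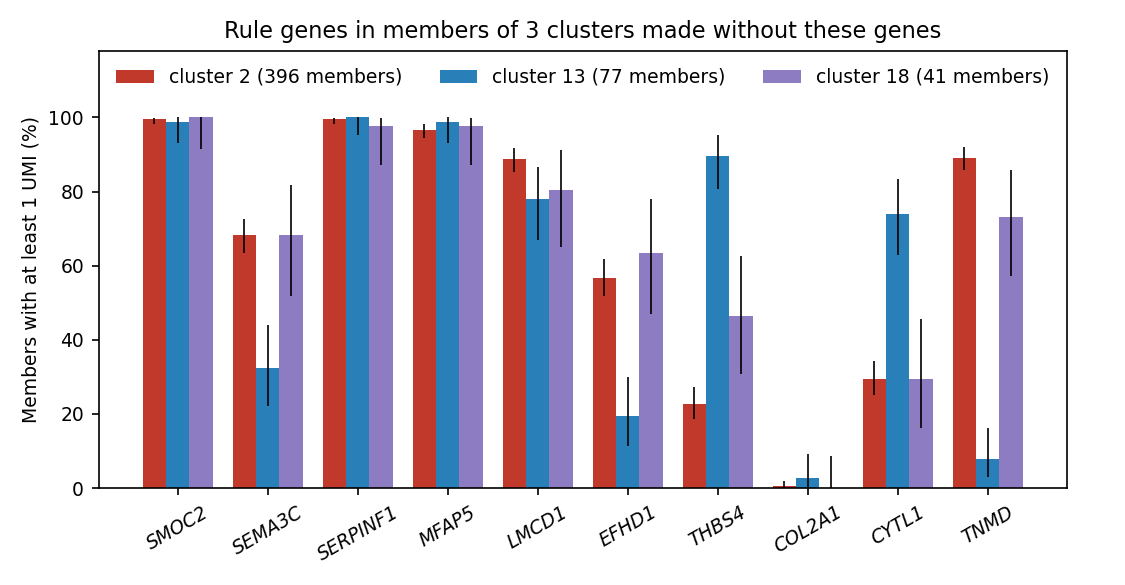
Share of members with at least 1 UMI (vertical axis, %) of each of the 10 rule genes (horizontal axis) in the 3 clusters with the most members, made without these genes. Bars are exact binomial 95% intervals. SEMA3C, EFHD1 and TNMD are found less, and THBS4 and CYTL1 more, in members of cluster 13 than in those of cluster 2. Under the rule a member with both THBS4 and CYTL1 could not have TNMD.

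Without clusters and without the limit on excluded genes, TNMD was also found less often in cells with THBS4, but most of the cells with THBS4 had both genes. Among all 746 E60 cells with 4 or more rule markers, TNMD was found in 66.6% of the 374 cells with THBS4 and in 89.5% of those without it. CYTL1 was found in 66.0% of the cells with THBS4 and 31.7% of those without it.

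Across the 21 clusters the genes whose level was most like that of the 6 rule markers were ITIH5, ZFHX4, GALNT17, DISP1 and TBX3, with mean Spearman correlations of 0.83, 0.81, 0.79, 0.79 and 0.79. The clusters come from 1 library and share its depth and free RNA, so the correlations are a description. DISP1 was at 84.7 CPM in members and 13.7 CPM in the other E60 cells, and TBX3 at 53.8 against 10.6 CPM. Among the rule markers themselves, SMOC2 and SERPINF1 were most alike over clusters (0.89), and SEMA3C and LMCD1 least (0.52).

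Overlaps were taken with other groups of E60 cells defined by co-detection of genes. Cells with both DKK1 and CXCL14 numbered 1666, of which 30 were members, 5.30% of the members (3.60 to 7.48) and 1.80% of that group. Of 2019 cells with TMEM35A and RCAN2, 36 were members (6.36% of members), and of 672 cells with GDF10, ANGPT1 and ACTA2, 42 were (7.42%). Those groups made up 24.3%, 29.5% and 9.81% of E60, so the first 2 shares among members lay below that of the library, while the interval of the third (5.40 to 9.90) held it. Against the cells of each group outside the members, 17.3%, 15.4% and 12.3% of the genes tested were at least 1.5-fold higher in members and 11.2%, 9.79% and 8.49% lower.

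The nearest group was that of the 388 cells with at least 3 of the 4 tendon or cartilage genes, with which the rule allows no overlap. Against it, 5.26% of genes were at least 1.5-fold higher and 3.92% lower in members. DLK1 was at 4294 CPM in members and 4062 CPM in that group, SERPINF1 at 762 and 723 CPM, and PCOLCE at 1617 and 1678 CPM, all within 1.5-fold. So were KCNJ8 (56.4 and 49.8 CPM), ADAMTSL4 (94.5 and 95.4 CPM), C2orf40 (112 and 128 CPM), SEMA3E (62.3 and 82.6 CPM) and COL1A1 (5675 and 7332 CPM). The same held for ADAMTSL3, THBS2, FIBIN, ZFHX4, PCSK5, TGFB2 and GALNT17. ABCC9 was at 191 and 123 CPM (0.63). In the cells with DKK1 and CXCL14, DLK1 was at 129 CPM and PCOLCE at 102 CPM, and in those with GDF10, ANGPT1 and ACTA2 at 106 CPM and 203 CPM. Genes outside the rule that were higher in members than in the tendon or cartilage group included GDF10 (166 against 46.6 CPM, 1.81), MAP1LC3C (93.6 against 27.4 CPM, 1.73), ANGPT1 (1.62), LUM (8373 against 2957 CPM) and ACTA2 (1.19). The rule markers LMCD1, EFHD1 and SEMA3C were at 202 against 73.0, 106 against 36.8 and 224 against 85.8 CPM, a difference that the choice of cells favours. The group includes the 180 cells with 4 or more rule markers, so it shares the rule markers in part.

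At the later stages the rule found few cells. It was met by 20 of 6931 cells at E90 (0.289%, 0.176 to 0.445) and by none of 6896 at E120, a share of 0 with an exact upper bound of 0.0535% (3 cells of the total would be 0.0435%). With each cell thinned to 2000 UMIs, the rule was met by 236 E60 cells (3.45%), 1 E90 cell and no E120 cell, and the median depth of E120, at 13064 UMIs, was above that of E60. The markers did not go down together. Over all cells of E60, E90 and E120 in turn, SERPINF1 was at 128, 3.60 and 2.49 CPM and SMOC2 at 197, 55.8 and 4.85 CPM, whereas LMCD1 was at 32.9, 63.4 and 15.4 CPM and EFHD1 at 13, 23.8 and 203 CPM. Stage, dissociation and the mix of cell types cannot be told apart in these values.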

How the data were processed

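Droplet 3′ single-cell RNA sequencing of goat skin gave 1 table for E60, E90 and E120. Reads were processed with Cell Ranger 3.0.2, per the submitters' processing notes. The genome build, annotation and filters are not given in the sources used here. The deposited values were natural log values, ln of 1 plus UMIs scaled by the authors to 10000 per cell, as the values themselves showed. Counts of UMIs were recovered by inversion, taking the smallest nonzero value of a cell as 1 UMI, and 100% of nonzero values then came out whole to within 0.01.

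UMIs were summed over members and over comparison cells, scaled to CPM and compared by the log2 ratio of CPM + 1, calling a gene past 1.5-fold with at least 20 CPM in the higher group. With 1 library there was no test. Intervals are exact Poisson or Clopper-Pearson intervals at 95%. The script was tested on simulated data. Named genes had at least 50 CPM: the 15 highest and 10 lowest ratios against all other E60 cells, 10 of each against mesenchymal ones, and up to 4 per list. Some genes that met this rule are not reported here. Other genes of a list were named after their values were seen. The planned design assumed UMI counts, which this recovery supplied. Members and lists were chosen with earlier results of these data known. Grouping used 2000 variable genes, 30 components, 20 neighbours and Leiden resolution 1 (leidenalg 0.10.2, igraph 0.11.9, scikit-learn 1.9.0, numpy 2.4.6, scipy 1.17.1). No cell was removed as a doublet. Gene names are those of the table. No sequence or coordinate is given.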

Additional observations from a re-analysis of the deposited data

How the results depend on the processing

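All values rest on 1 library, so spread between fetuses cannot be given, and no paired analysis was possible because each stage has 1 library and the labels give no replicate numbers. The share of members, 8.26%, was 7.56% with the rule read at 6000 UMIs per cell, 13.3% with at least 3 markers, 5.11% with at least 5, 0.453% with no excluded gene allowed, 10.9% without the exclusion and 5.87% with 2 UMIs per marker. Without a minimum CPM, 1299 genes were higher and 1451 lower against other E60 cells, and 1663 and 1162 against the mesenchymal ones. Members without an excluded gene, 31 cells, had 543 lower genes against other E60 cells, an alternative chosen after seeing the data, as were both on the comparison cells. The E90 share went from 0.289% to 0.0144% at 2000 UMIs per cell. At Leiden resolution 0.5, 83.7% of members were in 1 cluster, against 70.0%. Other settings kept each count of genes within 1.5 times, and median-of-ratios scaling moved the ratios by under 0.1. All 25 genes chosen against other E60 cells, and 76 of 85 against the mesenchymal ones, stayed past 1.5-fold in the same direction under every alternative. Reversed were CCL21, at -1.25 with the rule at 6000 UMIs, -1.17 with at least 5 markers, -1.27 without the deepest cells and -1.20 without cells of another class, SOX18, at -0.41 and -0.12 under the first and last of these, DEPP1, at -0.03 under the last, and the median of the WNT list against other E60 cells, at -0.07 with at least 5 markers. The cause was not tested.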
